A study of Mus musculus with 6 samples.

Results

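The 10 genes described here are transcripts of cardiac muscle that were measured in lung tissue: Myl7, Myl4, Myh6, Tnnt2, Tnni3, Nppa, Actc1, Ryr2, Mybpc3 and Sln. They were taken by gene symbol from the deposited table of 18174 genes, in which each of the 10 had 1 row. Lung was collected from wild type male C57BL/6J mice, an inbred laboratory strain, in 2 groups of 3 libraries. One group was kept at room temperature and the other was exposed to 4 °C for 6 h. The labels call the libraries of a group biological replicates and do not say whether each came from its own animal, so p-values reflect only how much these libraries vary. The deposited unit is RPKM, reads per kilobase and per mega (M) reads, with the length counted over the whole gene, introns included (its span). RPKM times the span in kilobases gives RPM, reads per M reads, and dividing it by a composition factor of each library gives the scaled RPM used below to compare libraries.

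Heart muscle contracts when calcium released from the sarcoplasmic reticulum lets myosin of the thick filament pull on actin of the thin filament. Atrial muscle differs from ventricular muscle in its myosin light chains and in the natriuretic peptide it secretes. In mice a sleeve of atrial-like heart muscle continues from the left atrium along the pulmonary veins into the lung, so dissected lung can hold heart muscle transcripts. In whole tissue, fewer cells of a type and less RNA per cell cannot be told apart.

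All 10 genes were lower on average in the cold libraries, and 9 of them passed the test. The median log2 fold change of the 10 was −2.05, against 0.0031 over the 15237 genes tested. Together they took 0.150%, 0.0427% and 0.170% of the reads in room temperature replicates 1, 2 and 3, and 0.0368%, 0.0194% and 0.0324% in cold replicates 1, 2 and 3. Room temperature replicate 2 thus lay far below replicates 1 and 3 and, on these unscaled shares, close to cold replicate 1. In summed scaled RPM the 2 libraries were further apart, at 499 in room temperature replicate 2 and 327 in cold replicate 1. By limma with p-values adjusted after Benjamini and Hochberg, 35% of the genes tested were called lower in cold and 35.5% higher, so the 9 calls among the 10 genes stand in a comparison in which calls were common. For 8 of the 10 genes every cold library lay below every room temperature library, which held for 37.8% of all genes tested. The exceptions were Myh6 and Ryr2, and, on the deposited RPKM without composition factors, also Tnnt2.

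**Figure D1:**
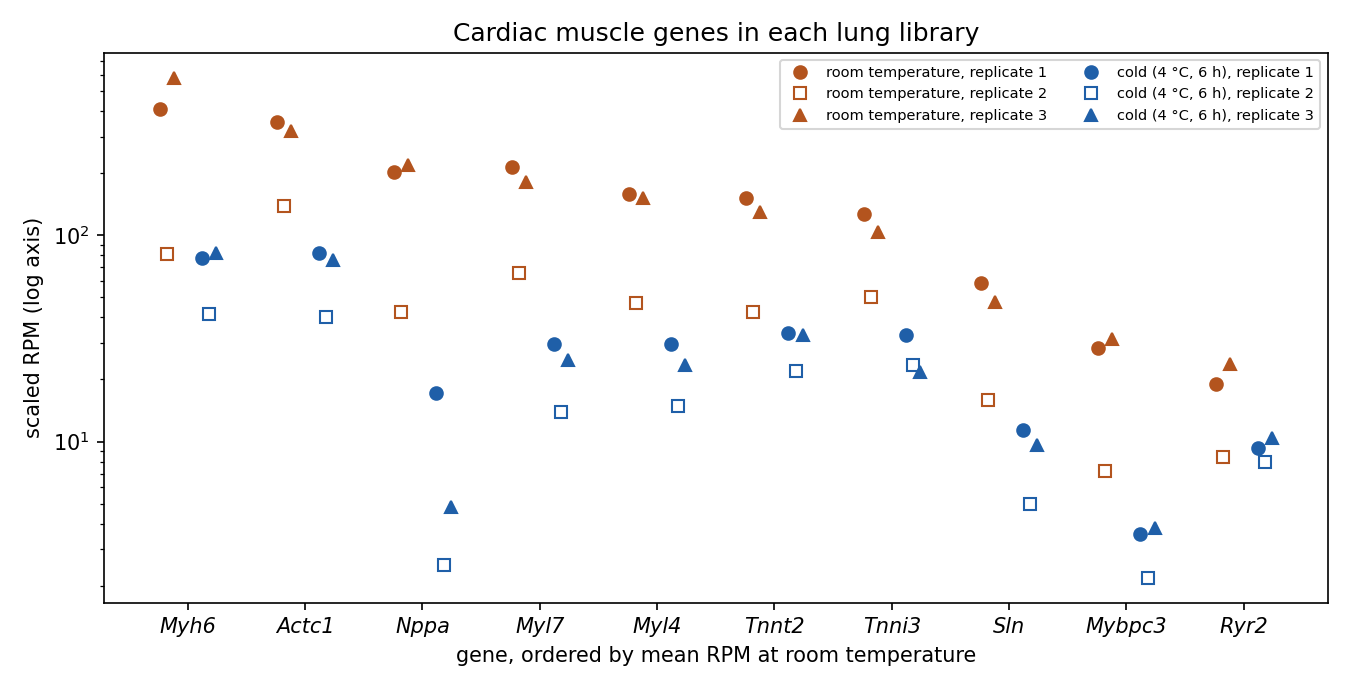
Scaled RPM (log axis) of the 10 cardiac muscle genes in each library, with circles, open squares and triangles for replicates 1, 2 and 3. In every gene the open square of room temperature replicate 2 lies below the other room temperature points, and for Myh6 and Ryr2 it lies among the cold points.

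Promoter sequences of 9 of the 10 genes were found in the RefSeq table on GRCm38.p6 (all but Sln). The 150 bases before the start site are shown for 3 genes whose window held a CArG, MEF2 or TATAAA match and no exon of the gene itself, in the orientation of the gene. They are Myl7 at chr11:5898783-5898932 on the minus strand, Mybpc3 at chr2:91117994-91118143 on the plus strand and Nppa at chr4:148000572-148000721 on the plus strand. Capitals mark the CArG box in Myl7, the MEF2 site in Mybpc3 and the TATAAA of Nppa.
Myl7: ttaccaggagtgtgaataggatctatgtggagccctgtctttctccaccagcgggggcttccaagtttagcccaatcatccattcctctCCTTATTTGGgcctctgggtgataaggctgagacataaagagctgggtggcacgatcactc
Mybpc3: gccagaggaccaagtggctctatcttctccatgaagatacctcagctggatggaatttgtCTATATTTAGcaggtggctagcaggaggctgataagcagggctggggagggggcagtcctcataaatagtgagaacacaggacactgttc
Nppa: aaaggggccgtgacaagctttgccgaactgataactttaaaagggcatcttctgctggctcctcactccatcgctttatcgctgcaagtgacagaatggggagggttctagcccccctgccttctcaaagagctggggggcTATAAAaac
Over the 250 bases before the start and on both strands, the CArG box, the target of serum response factor, was found in Actc1 and Myl7 and in 1.4% of 27025 promoters. A MEF2 site was found in Mybpc3 alone of the 9, and in 3.01% of all promoters. TATAAA was found in Nppa and in 13% of all promoters. The GATA box, spelled AGATAA, was found in Tnnt2 and in 10.3% of all promoters. CATTCC, the MCAT element, was found in 3 of the 9 (12.6% of all), AAGTG, an Nkx2-5 element, in 5 (40.8%) and CANNTG, the E-box, in 7 (66%). The AAGTG matches in Mybpc3, Nppa and Myl7 include ones that overlap an E-box. The windows of Actc1, Tnni3 and Myh6 each overlapped 1 annotated exon of the gene itself, and their matches are included in these counts. These are matches of letters in a window and do not show binding.

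The myosin genes were led in fold by Myl7, the regulatory light chain of atrial myosin (ENSMUSG00000020469, chromosome 11, 5896637 to 5898782 on GRCm38). It was listed at 87.5, 26.3 and 80.1 RPKM in room temperature replicates 1 to 3 and at 15.6, 7.27 and 12.9 RPKM in cold replicates 1 to 3. Room temperature replicate 2 was the low library of its group but stood above all cold libraries. Scaled RPM fell from 154 ± 78.1 to 22.8 ± 8.03 (mean ± SD over the 3 libraries of a group, as in all later values), a log2 fold change of −2.62 ± 0.49 SE (adjusted p = 0.0033, limma). Myl4, the essential light chain of atrial myosin (chromosome 11, 104550663 to 104595753), was listed at 3.06, 0.891 and 3.19 RPKM against 0.739, 0.37 and 0.586. Its groups did not overlap, although the lowest room temperature value was 1.59 times the highest cold value after scaling. The log2 fold change of Myl4 was −2.22 ± 0.51 SE (adjusted p = 0.0076, limma).

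Myh6, the alpha heavy chain of cardiac myosin (chromosome 14, 54941921 to 54966927), was listed at 14.3, 2.78 and 22.1 RPKM at room temperature and at 3.49, 1.85 and 3.68 RPKM in cold. It had the widest spread of the 10 genes at room temperature, with a highest library 7.12 times the lowest. Room temperature replicate 2, at 81.3 scaled RPM, lay between cold replicates 1 (77.4) and 3 (82.3), so the groups overlapped. Its log2 fold change was −2.05 ± 0.74 SE (adjusted p = 0.043, limma). This call was lost under the deposited scaling (adjusted p = 0.085) and when any library other than room temperature replicate 2 was left out (adjusted p = 0.070 to 0.14). Without room temperature replicate 2 the log2 fold change was −2.93 (adjusted p = 0.00073). Myh7, the beta heavy chain gene next to Myh6, had 12.4, 10.05 and 10.3 scaled RPM against 10.2, 10.1 and 12.7 (log2 fold change 0.01 ± 0.14 SE). The sequences of Myh6 and Myh7 are alike, and no source used here says how reads that match both were counted.

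The 3 genes of the thin filament and its regulators all fell. Actc1, cardiac alpha actin (chromosome 2, 114047282 to 114053548), was listed at 49.3, 18.8 and 48.9 RPKM at room temperature and at 14.8, 7.14 and 13.5 RPKM in cold. Its groups were separated, and room temperature replicate 2 was the nearest to cold (log2 fold change −1.98 ± 0.43 SE, adjusted p = 0.0062, limma). Reads of Actc1 can also match the other muscle actins, so its level is uncertain to that extent. Tnni3, troponin I of heart muscle, the inhibitory subunit (chromosome 7, 4518305 to 4524229), was listed at 18.7, 7.28 and 16.7 RPKM against 6.23, 4.42 and 4.09. This was the only one of the 10 genes for which cold replicate 2 was not the lowest cold library (log2 fold change −1.75 ± 0.35 SE, adjusted p = 0.0042, limma). Tnnt2, troponin T, which ties the troponin complex to tropomyosin (chromosome 1, 135836354 to 135852260), was listed at 8.31, 2.30 and 7.73 RPKM against 2.37, 1.54 and 2.30. On this deposited scale room temperature replicate 2 lay below cold replicates 1 and 3, and after scaling the groups were separated at 42.7 scaled RPM against at most 33.5. The log2 fold change of Tnnt2 was −1.69 ± 0.48 SE (adjusted p = 0.019, limma), with an adjusted p of 0.052 without room temperature replicate 1, 0.075 without room temperature replicate 3 and 0.061 without cold replicate 2.

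Mybpc3, myosin binding protein C of heart muscle, a thick filament protein (chromosome 2, 91118144 to 91136516), was listed at 1.34, 0.337 and 1.64 RPKM at room temperature and at 0.218, 0.133 and 0.232 RPKM in cold. Every cold library lay below room temperature replicate 2, which was itself the lowest of its group. The log2 fold change was −2.41 ± 0.56 SE (adjusted p = 0.0079, limma). Its 80 recovered reads in cold replicate 2 were the fewest for any of the 10 genes in any library, and Myh6 in room temperature replicate 3 had the most, 22238.

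Of the calcium handling genes, Sln fell and Ryr2 did not pass the test. Sln encodes sarcolipin, a small inhibitor of the sarcoplasmic calcium pump that in the heart is found mainly in atria (chromosome 9, 53850164 to 53854560). It was listed at 11.7, 3.09 and 10.3 RPKM at room temperature and at 2.91, 1.27 and 2.45 RPKM in cold. The groups of Sln were separated by a small gap, from 15.9 scaled RPM in room temperature replicate 2 to 11.4 in cold replicate 1 (log2 fold change −2.05 ± 0.54 SE, adjusted p = 0.013, limma). Without room temperature replicate 3 its adjusted p was 0.057.

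Ryr2, the calcium release channel of the sarcoplasmic reticulum in heart muscle (chromosome 13, 11553102 to 12106945), was listed at 0.03, 0.013 and 0.041 RPKM at room temperature and at 0.019, 0.016 and 0.021 RPKM in cold. Room temperature replicate 2 was below 2 of the 3 cold libraries on the scaled values and below all 3 on the deposited ones, and replicates 1 and 3 were above them all. The log2 fold change was −0.74 ± 0.36 SE with a 95% interval of −1.60 to 0.11 (adjusted p = 0.10, limma). In a fit that blocks on replicate number it had the same size and passed (adjusted p = 0.032), and without room temperature replicate 2 it was −1.19 (adjusted p = 0.00031). Ryr2 has the longest span of the 10 genes, 553844 bases, of which exons make up 5.20%, against 10.3% to 63.7% in the other 9. Its RPKM is therefore small and coarse: the deposited rounding by 0.0005 is 3.85% of its value in room temperature replicate 2.

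Nppa, which encodes the atrial natriuretic peptide, a hormone that atrial muscle secretes, had the largest fold of the 10 genes (ENSMUSG00000041616, chromosome 4, 148000722 to 148002079). It was listed at 130, 26.7 and 153 RPKM in room temperature replicates 1 to 3 and at 14.2, 2.07 and 3.99 RPKM in cold replicates 1 to 3. Cold replicate 1 stood apart from the other cold libraries, and all 3 lay below room temperature replicate 2. Scaled RPM went from 154 ± 97.5 to 8.16 ± 7.85, a log2 fold change of −4.24 ± 0.85 SE (adjusted p = 0.0044, limma). By size of its fall Nppa ranked 19 among the 15237 genes tested, and the next of the 10, Myl7, ranked 216. The SD among cold libraries was 96.2% of the mean for Nppa and 13.4% to 38.1% for the other 9 genes. A non-coding antisense gene overlaps Nppa, and others overlap Myl4 and Myh6. The labels do not say if strand was kept, so reads of overlapping genes cannot be told apart.

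**Figure D2:**
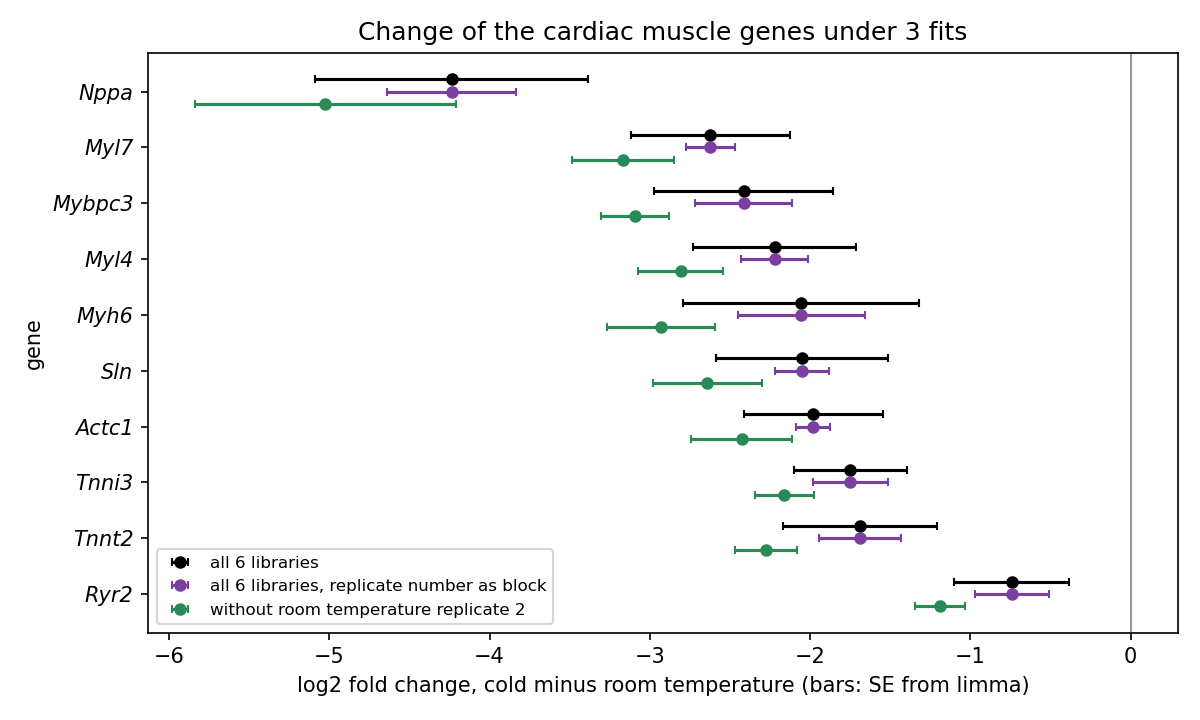
Log2 fold change (cold minus room temperature) with its SE for each gene in the fit of all 6 libraries, in the fit that blocks on replicate number, and without room temperature replicate 2. All points lie below 0, from −5.03 for Nppa without room temperature replicate 2 to −0.74 for Ryr2 in the fits of all 6 libraries.

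The spread among the room temperature libraries ran in the same direction in all 10 genes. Room temperature replicate 2 was at least 2-fold below each of replicates 1 and 3 in 10 of the 10 genes, a pattern seen in 4.61% of the 15237 genes tested. Replicate 1 exceeded replicate 2 by 2.26 times in Ryr2 to 5.02 times in Myh6, with a median of 3.45 times. Replicate 3 exceeded replicate 2 by 2.06 times in Tnni3 to 7.12 times in Myh6, with a median of 3.01 times. The SD among room temperature libraries was 41.8% of the mean in Tnni3 to 71.0% in Myh6, where the median of all genes tested was 14.2%. In cold, replicate 2 was the lowest library in 9 of the 10 genes, as it was in 34.2% of all genes tested, and the highest library exceeded the lowest by 1.31 times in Ryr2 to 2.28 times in Sln, with Nppa apart at 6.80 times.

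The size of the difference between groups depended on which room temperature libraries entered it. The mean of replicates 1 and 3 was 2.32 times the cold mean for Ryr2, 4.43 times for Tnni3, 8.66 times for Myl7, 9.39 times for Mybpc3 and 25.8 times for Nppa. Replicate 2 alone was 0.912 times the cold mean for Ryr2, 1.21 times for Myh6, 2.89 times for Myl7 and 5.19 times for Nppa, and over the 10 genes its median was 2.00 times. Same-numbered libraries were both low for number 2. Between same-numbered libraries Myl7 differed by −2.84, −2.20 and −2.84 on the log2 scale for numbers 1, 2 and 3, and Nppa by −3.53, −3.83 and −5.36. When the fit blocked on replicate number all 10 genes were called lower, as were 34.9% of all genes tested, and without room temperature replicate 2 again all 10, with 33.8% of all genes tested. Without room temperature replicate 3 the count was 6 of 10, with 36% of all genes tested. It was 7 of 10 without room temperature replicate 1 (31% of all genes tested) and without cold replicate 2 (31.9%), and 8 of 10 without cold replicate 1 (31.6%) and without cold replicate 3 (31.8%). Without composition factors 8 of 10 genes were called lower, against 24.7% of all genes tested, and on the log2 of deposited RPKM plus 0.01 also 8, against 24.6%. With no filter on low values the count was 9, against 30.5% of the genes then tested.

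The make-up of the cardiac signal differed most in fold for Nppa, whose share was lower in every cold library, and for Ryr2, whose share was higher. Nppa took 11.8%, 8.48% and 12.2% of the summed RPM of the 10 genes at room temperature and 5.24%, 1.45% and 1.67% in cold. Its RPM relative to that of Myl7 was 0.942, 0.642 and 1.21 at room temperature and 0.578, 0.180 and 0.195 in cold, so the groups did not overlap, but room temperature replicate 2 and cold replicate 1 were near each other. Ryr2 moved the other way, from 1.11%, 1.69% and 1.33% of the sum to 2.86%, 4.58% and 3.59%. Myl4 held a share of 8.16% to 9.41% in all 6 libraries and Sln of 2.67% to 3.48%. Across the 6 libraries, Pearson's r between pairs of the 10 genes on the log2 scale was 0.829 to 0.997 over 45 pairs, with a median of 0.976. These libraries share the group difference and the low replicate 2, so the values only describe how closely the genes moved together.

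**Figure D3:**
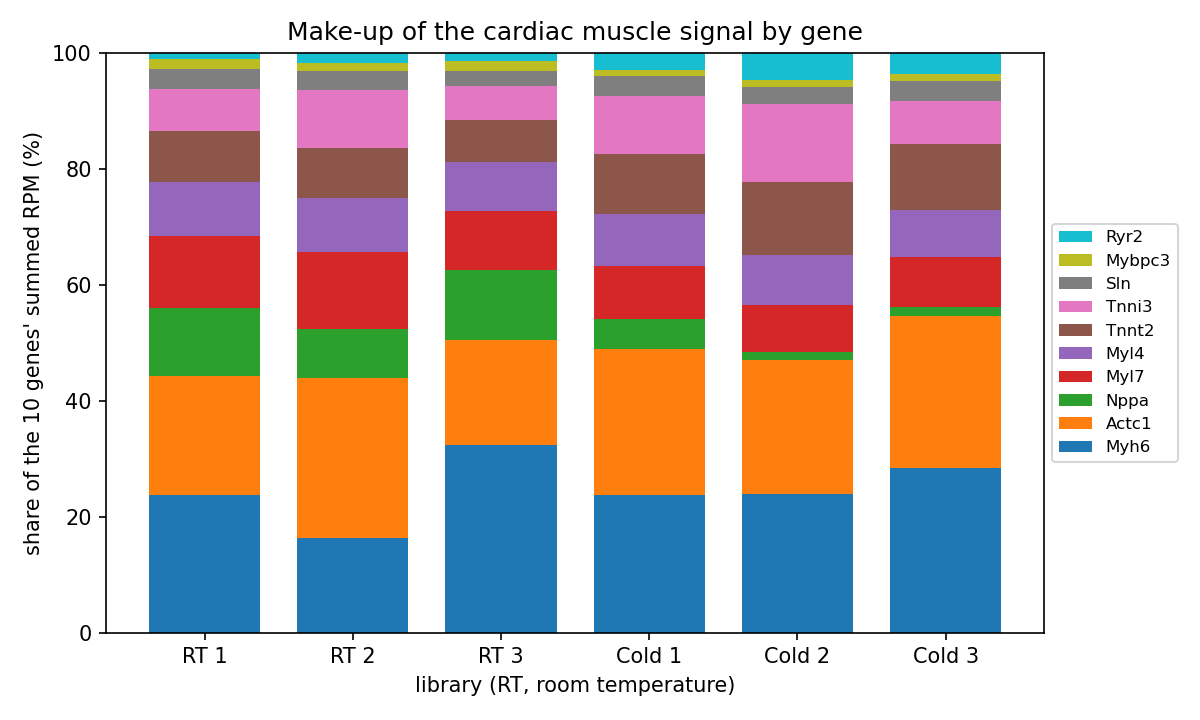
Share (%) of each gene in the summed scaled RPM of the 10 cardiac muscle genes, by library (RT, room temperature). The Nppa band is 8.48% to 12.2% at room temperature and 1.45% to 5.24% in cold, while the Ryr2 band is wider in cold.

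Levels of different genes were compared per length. Per kilobase of span, the order at room temperature was Nppa at 114 ± 71.8 scaled RPKM, Myl7 at 71.7 ± 36.4, Actc1 at 43.3 ± 18.6, Tnni3 at 15.8 ± 6.61, Myh6 at 14.2 ± 10.1, Sln at 9.30 ± 5.09, Tnnt2 at 6.77 ± 3.61, Myl4 at 2.63 ± 1.38, Mybpc3 at 1.22 ± 0.718 and Ryr2 at 0.0309 ± 0.0143. The ranges of neighbours in this order overlapped over the 3 libraries, except for Actc1 above Tnni3 and Mybpc3 above Ryr2. Within single room temperature libraries the order of neighbours held in all 3, apart from Myh6. Myh6 was above Tnni3 in replicate 3 and below Sln in replicate 2. In cold, Myl7 at 10.6 ± 3.74 and Actc1 at 10.5 ± 3.62 stood level. Nppa followed in the mean at 6.01 ± 5.78, with a range that overlapped theirs, but lay below both in each cold library. Its place rested on cold replicate 1. In cold replicates 2 and 3 Tnni3 was above Nppa (3.965 and 3.661 against 1.854 and 3.564 scaled RPKM). Nppa was above Myl7 in all 3 room temperature libraries, in replicate 2 only just (31.2 against 30.7 scaled RPKM), and below it in all 3 cold libraries. Per kilobase of exon instead of span, Myl7 led Nppa at room temperature (261 ± 132 against 179 ± 113 RPM per kilobase), and Myl4 led Tnnt2 in each of the 3 libraries (25.6 ± 13.4 against 13.9 ± 7.40). The mean of Myh6 was also above that of Tnni3 (53.0 ± 37.6 against 45.4 ± 19.0), which was so in room temperature replicate 3 alone, with Tnni3 the higher in replicates 1 and 2.

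Other genes of heart muscle, from lists made with earlier results of these data known, were counted in the same fit, and genes named below to complete a count of 5 or fewer were named after their values were seen. Their counts stand against the 35% of all genes tested that were lower and the 35.5% that were higher. Of 20 other sarcomere and Z-disc genes 13 fell and 2 rose, with a median log2 fold change of −1.59, and 10 fell and 2 rose under the deposited scaling. Tcap, the titin cap protein of the Z-disc, fell by 3.11 on the log2 scale, Fhl2, a LIM domain protein of the sarcomere, by 2.66, and Tpm1, alpha tropomyosin, by 1.35 (each SE at most 0.36). The 2 that rose were Myzap, a junction protein also found in endothelium, and Nebl, nebulette. In 15 of these 20 genes room temperature replicate 2 was again at least 2-fold below both other room temperature libraries. Tcap was among them, and Fhl2 and Tpm1 were not. Of 14 muscle energy genes 11 fell and 0 rose (median −1.52), or 8 and 0 under the deposited scaling. Ckm, the muscle creatine kinase, had 41.9, 16.4 and 39.3 scaled RPM against 6.97, 3.59 and 3.78, and 11 of these 14 genes had the low room temperature replicate 2.

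The lists of calcium handling, ion channel and junction, and transcription factor genes held genes that fell and genes that rose. Of 18 calcium handling genes 9 fell and 3 rose (median −1.09), or 50% lower and 16.7% higher. Of those lower, Cacna2d2 reached the read minimum in room temperature libraries alone, so its call is not support, although the count and share include it. The junctional protein gene Jph2 fell by 2.17, and those that rose were the calcium channel genes Cacna1c and Cacna1d (by 1.95) and the kinase gene Camk2d. Of 16 tested ion channel and junction genes 9 fell and 5 rose (median −0.40), and under the deposited scaling 5 fell and 5 rose. Dsp, desmoplakin, which epithelia also make, fell by 1.75, while the genes that rose were Gjc1 (by 2.65) and Gja1, both connexins, the potassium channel genes Kcnj2 and Kcnj12, and Tmem65. Of 12 tested cardiac transcription factor genes 3 fell and 5 rose, with a median of −0.14 that turned to 0.13 under the deposited scaling, where 1 was lower and 6 rose. The 25% lower and 41.7% higher compare with 35% and 35.5% of all genes. The gene called lower under both scalings, Nkx2-5, a factor of the heart muscle lineage, stood at 3.09, 0.786 and 2.79 scaled RPM against 0.118, 0 and 0.0568. It reached the read minimum in room temperature libraries alone, so its call is not support, although the counts and shares above include it. The other genes that fell without the deposited scaling were Gata4 and Srf. Tbx3 and Mef2a rose by 3.59 and 1.62, and Mef2c, Mef2d and Tead1 also rose.

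Of 14 tested atrial and pulmonary vein genes 4 were called lower and 3 higher (median −0.63), which at 28.6% and 21.4% is below the shares over all genes. This list leaves out the atrial genes among the 10, Myl7, Myl4, Nppa and Sln, which were all called lower. Stard10 and Pam fell by 2.29 and 0.85. Shox2, which reached the read minimum in room temperature libraries alone, stood at 0.690, 0.352 and 0.432 scaled RPM against 0.0535, 0.0900 and 0.0539. The count and share of lower genes include Shox2, whose call is not support. Nr2f1 rose by 2.00, Kcnj3 also fell and Gja5 and Tbx5 also rose. In 8 of the 14 room temperature replicate 2 was at least 2-fold below both other room temperature libraries. Stard10, Pam, Shox2 and Nr2f1 were not among them. Of the 7 ventricular genes 4 were tested, of which 2 fell (Myl3 and Lbh) and 1 rose (Hey2), with a median of −0.40. Myl2, the ventricular regulatory light chain, was at 0, 0 and 0.132 scaled RPM at room temperature and at 0.0223, 0 and 0.056 in cold, too low to test. Over the same 6 libraries Myl7, its atrial counterpart, stood at 14.0 to 215 scaled RPM. Myl3, the ventricular essential light chain, was detected at 5.18, 2.19 and 5.16 scaled RPM at room temperature, with the low replicate 2, and at 0.918, 0.676 and 0.925 in cold.

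The 10 genes outside the set whose profile over the 6 libraries was most like the mean profile of the set had Pearson's r of 0.9895 to 0.9995, as a description over 2019 genes with a mean of at least 0 and an SD of at least 1 in log2 RPM. They were, in order, Mb, Nrap, Myoz2, Csrp3, Myom2, Hrc, Actn2, Slc17a7, Tnnc1 and Mybphl. Mb, myoglobin, stood at 114, 30.3 and 107 scaled RPM at room temperature and at 20.2, 9.46 and 14.9 in cold. On the lists of other sarcomere or calcium handling genes were Myoz2, Csrp3, Myom2, Actn2, Tnnc1 and Hrc, and Mb was on the energy list. Slc17a7, a vesicular glutamate transporter known from neurons, was the one without a well known muscle role, at 3.62, 0.955 and 3.61 against 0.293, 0.131 and 0.284 scaled RPM. The 6 libraries share the group difference and the low room temperature replicate 2, so the values carry no test.

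Markers of smooth and skeletal muscle were mostly without the low room temperature replicate 2. Of 15 smooth muscle markers 13 fell and 1, Nog, which reached the read minimum in cold libraries alone, was called higher (median −2.04), and in 0 of the 15 was room temperature replicate 2 at least 2-fold below both others. Acta2, smooth muscle actin, had 672, 413 and 571 scaled RPM against 128, 66.6 and 128, and Myh11, the smooth muscle heavy chain, 464, 424 and 411 against 114, 72.9 and 124. Of 11 tested skeletal muscle markers 5 fell (Acta1, Mybpc2, Myl1, Tnni2 and Tnnt3) and 2 rose (Atp2a1 and Neb), with a median of −0.53, and 3 fell and 3 rose under the deposited scaling. The 45.5% lower and 18.2% higher compare with 35% and 35.5% of all genes. In 2 of these 11 room temperature replicate 2 was at least 2-fold below both others. Acta1, skeletal alpha actin, had 76.0, 50.5 and 56.6 scaled RPM against 0.355, 0.249 and 0.205. The adult skeletal myosin heavy chain genes Myh1, Myh2 and Myh4 were at most 0.118 scaled RPM in any library. The mean log2 level of the 10 cardiac genes, centred over the libraries, was 1.67, −0.06 and 1.66 in room temperature replicates 1 to 3, and that of the smooth muscle markers 1.05, 0.73 and 0.82.

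**Figure D4:**
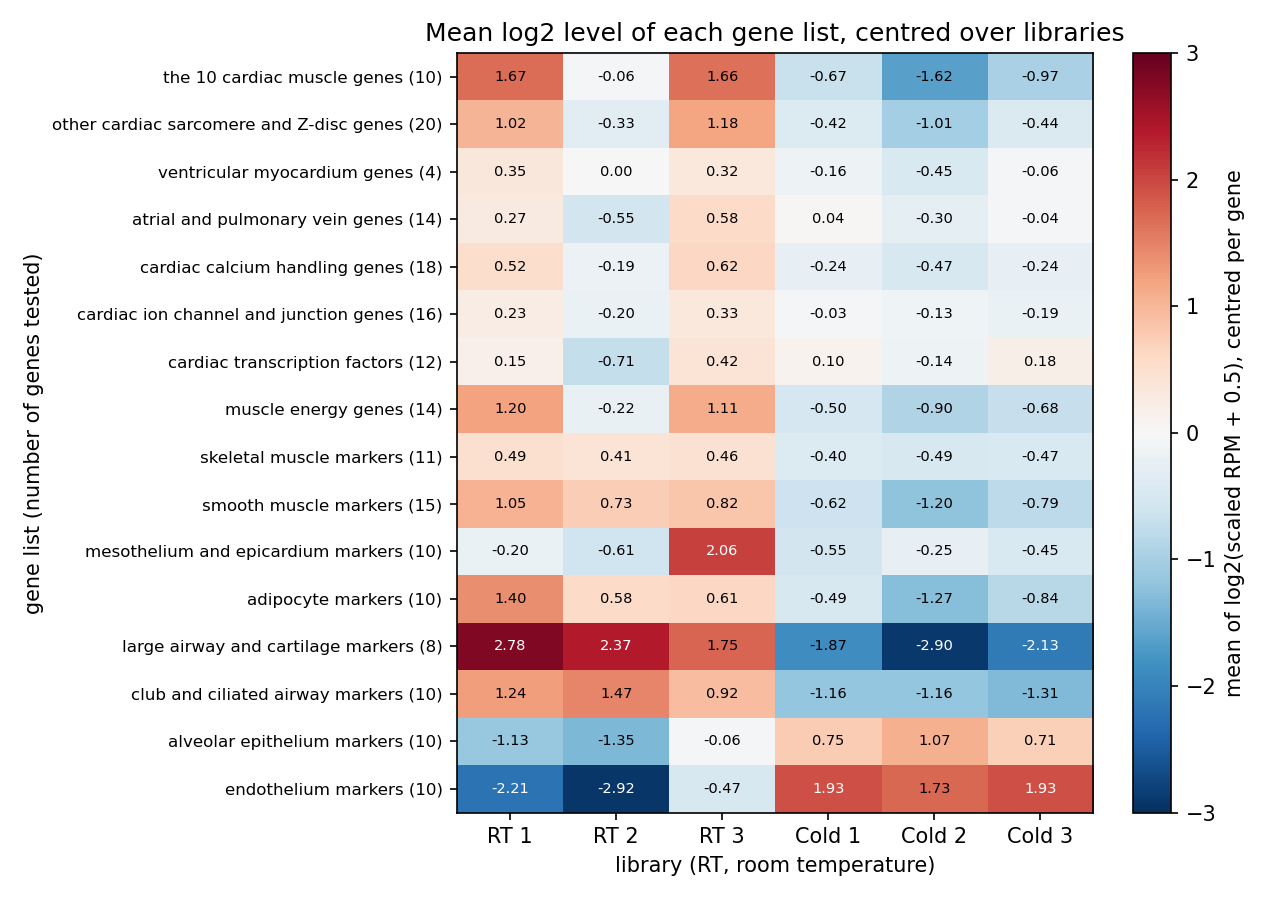
Mean of log2(scaled RPM + 0.5) over the tested genes of each list, centred per gene over the 6 libraries (RT, room temperature). The cardiac row goes from 1.67 and 1.66 in room temperature replicates 1 and 3 to −0.06 in replicate 2 and −1.62 to −0.67 in cold, whereas the smooth muscle and airway rows are high in all 3 room temperature libraries. Room temperature replicate 2 is also the lowest library in the endothelium, alveolar and mesothelium rows (−2.917, −1.355 and −0.609).

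Markers of other lung cell types differed between the same groups. All 8 tested markers of large airway and cartilage were called lower, Krt4 having reached the read minimum in room temperature libraries alone, with sums of 5013 to 11720 scaled RPM at room temperature and 101 to 349 in cold, and Acan and Col2a1, which define cartilage, were at or near 0 in all libraries. All 10 club and ciliated cell markers fell, from sums of 73290 to 92330 to sums of 18970 to 22690. All 10 endothelium markers rose, from sums of 124, 73.5 and 366 in room temperature replicates 1 to 3 to 1861 to 2341 in cold. Room temperature replicate 2 was thus lowest here too, and was at least 2-fold below both others in 1 of the 10. Of 10 alveolar markers 6 rose and 1, Pdpn, fell, with sums of 3849 to 6667 against 11380 to 14900. Pdpn was not called under the deposited scaling. Most of the rise in these sums was Sftpc, at 274, 149 and 2028 scaled RPM against 6688, 8918 and 6720. Sftpa1 and Sftpb were not called (log2 fold change −0.12 ± 0.17 SE and −0.08 ± 0.21 SE). These 3 genes were named after their values were seen. Of 10 mesothelium and epicardium markers 2 fell (Msln and Krt19) and 1 rose (Tcf21), with sums of 967 to 1140 at room temperature and 200 to 260 in cold. Most of these sums was Krt19, a keratin that airway epithelium also makes, and without it they were 120, 109 and 341 at room temperature and 80.0 to 92.6 in cold. Among them Upk3b, picked after its values were seen, stood at 2.88, 1.39 and 93.0 scaled RPM at room temperature, where replicates 1 and 3, alike in cardiac genes, differed. Adipocyte markers, of which 8 of 10 fell and Lpl rose, summed to 341, 212 and 211 at room temperature and to 236 to 275 in cold, and without Lpl to 263, 172 and 119 at room temperature and 17.5 to 45.4 in cold. Depth was 39.7, 48.7 and 40.3 M reads at room temperature and 32.7 to 35.1 M in cold, so room temperature replicate 2 was the deepest library. The part of these markers and of depth in the cardiac result was not tested.

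The authors' deposited table gives log2 fold changes of −0.56 for Ryr2 to −3.94 for Nppa, and in it 9 of the 10 genes have a q value under 0.05, as do 12% of the 18082 rows with a span, counting those lower in cold. The deposited q of Ryr2 is 0.249 and that of Nppa is 6.35e-10.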

How the data were processed

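RNA of 6 lung libraries was sequenced from NEBNext Ultra II RNA libraries, per the labels' protocols, and the genome build was mm10, per the submitters' processing notes. No source used here names an aligner, a counter or an annotation. The authors deposited 1 RPKM value per gene and library, rounded to 3 decimals, in a table named as raw counts. RPKM times gene span in GENCODE M21 (GRCm38) clustered at whole multiples of 1 step per library (phase coherence 0.804 to 0.842, where 1 is exact), which gives the depth, 32.7 to 48.7 M reads or fragments, of which 55.0% to 55.6% lay in listed genes. In genes under 5000 bases with up to 20 reads, 82.5% to 86.3% of recovered numbers were whole within 0.1. The deposited log2 fold change was recomputed from the means of each group plus 0.001 without a difference, and no source used here names the test behind the deposited p-value and q value. Of 18174 rows, 92 had no span and were not tested.

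The fixed design named limma on these values: limma 3.58.1 in R 4.3.3 (lmFit, eBayes with trend and robust options) on log2 of scaled RPM plus 0.5, with group as the only term. The composition factor was an unweighted trimmed mean of log ratios (trimming 30% of the ratios and 5% of the averages from either end). Genes needed the equivalent of 10 reads in at least 3 libraries and 15 reads in all. All p-values were two-sided, adjusted after Benjamini and Hochberg across 15237 genes, and called under 0.05. All 10 cardiac genes passed the filter. A fold change on this scale understates that of genes near 0.5 RPM. The procedure was tested on simulated data in which no library was low across a set of genes. That test therefore does not bear on calls of genes with the low room temperature replicate 2.

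The genes and all lists were chosen with earlier results of these data known. Named genes are the 10, up to 4 of each list by smallest p, defining genes of other muscle, and the 10 of most similar profile (mean log2 RPM at least 0, SD at least 1). Others are said to be named after their values were seen. Both groups carry replicate numbers 1 to 3 in the labels, which name no shared day or litter. Deviations from group means correlated across genes at 0.115, 0.149 and 0.155 between same-numbered libraries, all above 0.1. Between differently numbered libraries they correlated at −0.206 to 0.064. A block on replicate number was therefore tried as an alternative, and the main fit had none. Deviations within a group sum to 0, so the correlations of same-numbered and of differently numbered libraries are tied to each other. This pairing was also read from the same data, so the block fit is no independent support. Other alternatives were the added constant, scaling, filter, RPKM scale, voom, and leaving out each library. Python 3.11.15 drew the figures.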

Additional observations from a re-analysis of the deposited data

How the results depend on the processing

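The count of cardiac genes called lower was 9 of 10 and ran from 6 (without room temperature replicate 3) to 10 (without room temperature replicate 2) when single libraries were left out. It was 8 under the deposited scaling and for log2 of deposited RPKM plus 0.01, 10 with the replicate number as a block, and 9 under the other 6 alternatives, namely 0.1 or 1 RPM added, median of ratios scaling, no filter, a filter at 50 reads, and voom. The median log2 fold change of the 10 was −2.72 to −1.71 with single libraries left out and −1.73 under the deposited scaling. Myl7, Myl4, Tnni3, Nppa, Actc1 and Mybpc3 kept direction and call under all 15 alternatives, Sln under 14, Tnnt2 under 12 and Myh6 under 8, and no gene changed sign. Apart from Ryr2, the block changed no call among the 10, and it gave 5350 genes higher and 5319 lower. Over all genes the main fit called 5411 higher and 5335 lower (50.4% higher), and the deposited scaling 7034 and 3766 (65.1% higher), and it moved the median of all genes from 0.0031 to 0.292 on the log2 scale. With single libraries left out, 4650 to 5403 genes were lower and 4587 to 5430 higher. The median ratio of highest to lowest room temperature library over the 10 genes was 3.45, 3.60 under the deposited scaling and 3.42 with the median of ratios. Every cardiac gene had at least 80 recovered reads in each library.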

Other observations

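The low room temperature replicate 2 of the cardiac genes was also seen in 6 of the 12 tested cardiac transcription factor genes, namely Nkx2-5, Gata4, Tbx20, Tbx3, Myocd and Smyd1, and in Tbx5 of the atrial list. Gata4 stood at 1.58, 0.425 and 2.60 scaled RPM in room temperature replicates 1 to 3 and at 0.388, 0.196 and 0.325 in cold replicates 1 to 3 (log2 fold change −1.18 ± 0.42 SE, adjusted p = 0.035, limma). Tbx5, which lung mesenchyme also expresses, had the same low replicate 2 at room temperature (7.04, 2.89 and 10.5) but was higher in cold (21.2, 16.3 and 22.9; log2 fold change 1.64 ± 0.42 SE, adjusted p = 0.011, limma). These genes were picked after their values were seen. The Sftpc transcript of alveolar type 2 cells, also picked in this way, stood at 274, 149 and 2028 scaled RPM at room temperature and at 6688 to 8918 in cold, so room temperature replicates 1 and 3, alike in cardiac genes, differed in this alveolar gene.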
